A study of Mus musculus with 6 samples.

Results

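The numbered transmembrane proteins are the genes named Tmem followed by a number and, in some cases, a letter. The symbol means only that the protein is predicted to span a membrane, and genes received it before a function was assigned. Of the 6532 genes in the deposited table, 52 carried such a symbol, and all 52 are described here. They were chosen by name and not by any measured value. The symbols are those of the deposited table, and 11 of the 52 have since been renamed in RefSeq, among them Tmem2 (now Cemip2), Tmem5 (Rxylt1), Tmem48 (Ndc1), Tmem49 (Vmp1), Tmem55b (Pip4p1), Tmem66 (Saraf), Tmem85 (Emc4), Tmem93 (Emc6), Tmem111 (Emc3) and Tmem194 (Nemp1).

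Most membrane proteins are made by ribosomes docked on the endoplasmic reticulum (ER), where the translocon and the ER membrane protein complex (EMC) place their hydrophobic segments in the lipid bilayer. From there many travel to the Golgi, lysosome or cell surface, and others stay in the ER or the nuclear envelope. Membrane proteins of mitochondria take another route and are usually imported after their synthesis in the cytosol. The group therefore holds proteins of many unrelated families. By a list of roles, 5 members act in membrane insertion at the ER, 10 in secretory traffic, autophagy or the lysosome, 5 in lipid handling or at the cell surface, 3 in ion and calcium transport, 3 in the nuclear envelope, 1 in the cilium and 7 in mitochondria. The other 18 were placed in no list.

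The study asked how the glycolytic enzyme PKM, which was found among ribosome-associated proteins, bears on messages and their translation in mouse embryonic stem cells. Wild-type E14 cells, an established embryonic stem cell line grown with serum and LIF, received either siRNAs against PKM1 and PKM2 (siPKM) or a non-targeting pool (siCtrl), both at 20 nM for 36 h. Each treatment gave 1 RNA library and 1 footprint library, which holds the ribosome-protected fragments (RPF). Cells for both kinds were passaged 16 h before harvest and received cycloheximide at 100 µg/ml for 2 min. The remaining 2 libraries were FAST-iCLIP replicates from E14 cells carrying PKM2 with FLAG and HA tags, crosslinked by ultraviolet light at 0.35 J per cm2. In this method reverse transcription tends to stop beside a crosslinked base, so a stop marks RNA that was in contact with the tagged protein or that remained as background. No CLIP library of untagged cells was used here. Because each siRNA treatment had 1 library of each kind, no test between treatments was possible, and each log2 ratio below is given with a 95% interval that covers counting error only.

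The libraries held between 10349212 and 15175242 coding-sequence reads, and the CLIP replicates held 677534 and 670508 stops. Levels are in CPM, a gene's reads scaled to the same library total in each library. Pkm itself stood at 1582 CPM in siPKM RNA, against 5024 CPM in siCtrl RNA, and had the lowest RNA ratio of all 6532 genes. Of 12 pluripotency markers, 11 were in the table, and their summed RNA level was 5150 CPM in siPKM cells and 5178 CPM in siCtrl cells. Of the trophoblast markers 3 of 7 were in the table, with 83.6 CPM in siPKM RNA and 77.5 CPM in siCtrl RNA, and of the primitive endoderm markers 1 of 6, with 16.4 CPM in siPKM RNA and 15.1 CPM in siCtrl RNA. The fibroblast list was represented by Vim alone, at 304 CPM in siPKM RNA and 229 CPM in siCtrl RNA, and 3 of 4 neural markers summed to 125 CPM in siPKM RNA and 177 CPM in siCtrl RNA. Some of these sums hide markers that went opposite ways. Log2 RNA ratios of siPKM over siCtrl ran from 0.55 (Esrrb) to -0.38 (Lin28a) among the pluripotency markers. Among the trophoblast markers, Krt8 stood at 0.585, Krt18 at 0.37 and Tcfap2c at -0.60. The part of the markers in the values below was not tested. Bulk libraries cannot tell fewer expressing cells from less RNA per cell.

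The members were modestly covered messages. The median member had 434.5 coding reads in siPKM RNA, 480.5 in siCtrl RNA, 341.5 in siPKM RPF and 378.5 in siCtrl RPF, where the median gene had 689, 764, 704 and 838 in the same 4 libraries. Every gene in the table had at least 151 coding reads in each of the 4, so a numbered transmembrane gene below that in any library is not analysed here. Tmem55b lay at this limit, with 151 reads in siPKM RNA.

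The RNA of the numbered transmembrane proteins lay close to the median gene after PKM knockdown. The median member had a log2 ratio of 0.06 (siPKM over siCtrl, relative to the median of all genes), 34 of 52 members were above 0, and the members' ratios had an SD of 0.18 against 0.28 over all genes. At a threshold of 1.5-fold, 0 members were higher, where 2.88% of all genes were, and 0 were lower, where 1.24% of all genes were. At a lower threshold, a ratio of 5 to 4, 4 members were higher, where 12.4% of all genes were, and 0 were lower, where 8.47% were.

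The highest RNA ratio belonged to Tmem131, a protein needed for collagen secretion, with 209.9 CPM in siPKM cells against 150.4 CPM in siCtrl cells, a log2 ratio of 0.43 (0.34 to 0.52). Tmem147, a partner of the ER translocon, had 79.1 CPM in siPKM cells and 58.0 CPM in siCtrl cells, a log2 ratio of 0.40 (0.26 to 0.55). For these 2 genes, and for the members named next in this paragraph, the siPKM library was the higher one by more than counting error. Next in order came Tmem106b, a lysosomal membrane protein, at 0.37, Tmem30a, the subunit that lipid flippases need to leave the ER, also at 0.37, Tmem120a at 0.31, Tmem39a at 0.29, and Tmem64 and Tmem2 at 0.25 each. Tmem2, a cell-surface protein of hyaluronan turnover, is the deepest member, with 369 CPM in siPKM RNA and 301 CPM in siCtrl RNA.

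The lowest RNA ratios were shallower. Tmem132a had 26.5 CPM in siPKM cells and 31.2 CPM in siCtrl cells, a log2 ratio of -0.28 (-0.51 to -0.06). Tmem55b, now named as a lysosomal phosphoinositide phosphatase, had 14.6 CPM in siPKM cells and 17.1 CPM in siCtrl cells, a log2 ratio of -0.27 whose interval (-0.59 to 0.03) includes 0. Tmem126b, an assembly factor of respiratory complex I, stood at -0.26 (-0.52 to -0.00), and Tmem48, the nuclear pore anchor Ndc1, at -0.24 (-0.34 to -0.14) with 129.6 CPM in siPKM cells against 148 CPM in siCtrl cells. Tmem50a and Tmem57 stood at -0.20 each, Tmem167 at -0.18 and Tmem208 at -0.17. The remaining 36 members lay between these highest and lowest values. When all reads of the transcript were counted, the RNA ratio of Tmem167 was 0.01 and that of Tmem208 -0.06. Those of Tmem50a and Tmem57 were then -0.23 and -0.14.

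**Figure D1:**
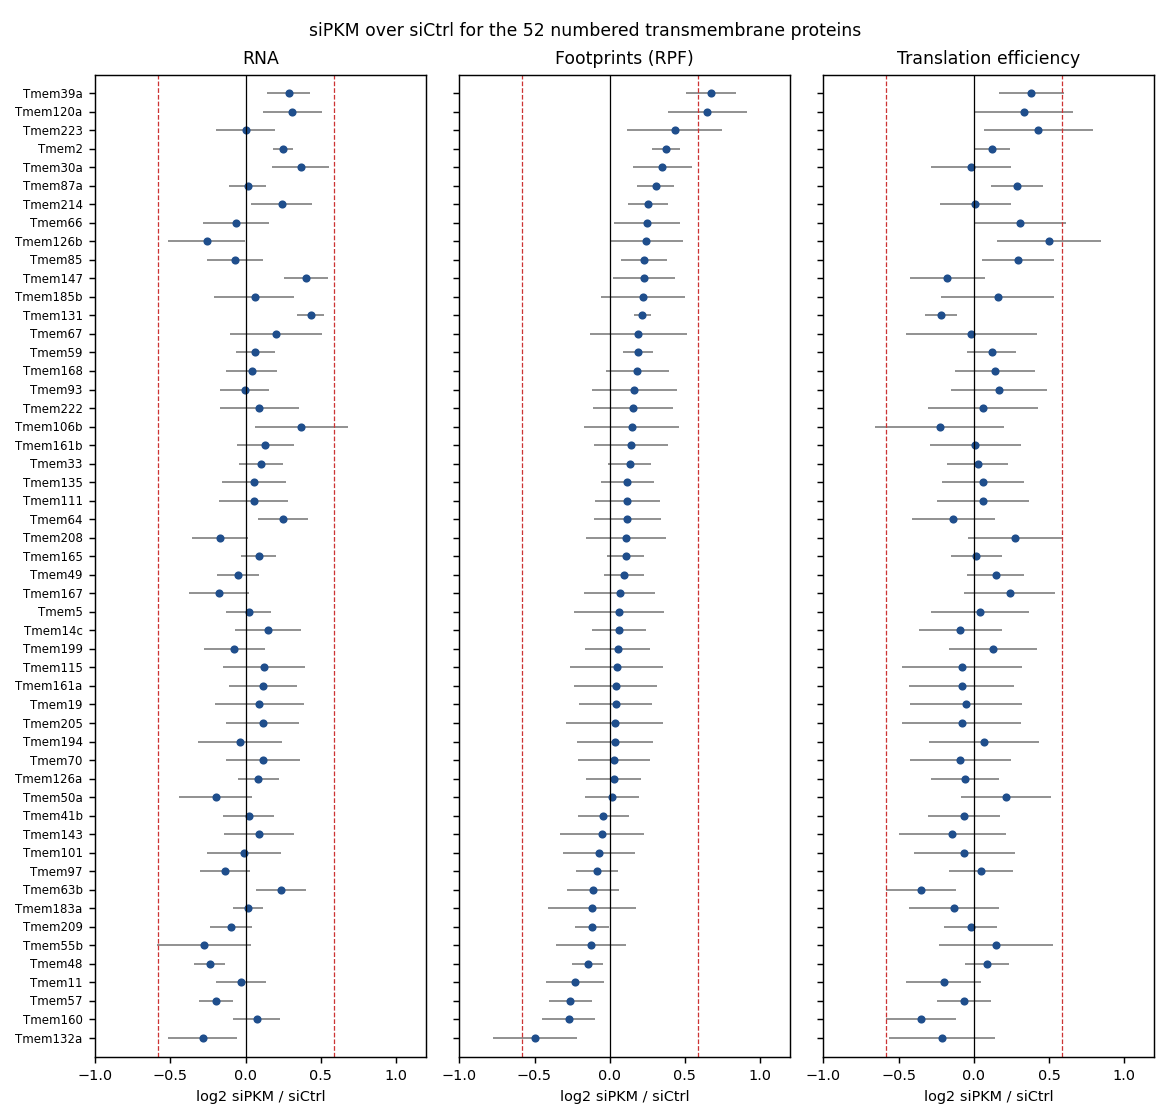
Log2 ratio of siPKM over siCtrl for RNA, footprints and translation efficiency, 1 row for each of the 52 members ordered by the footprint ratio. Points are single-library ratios relative to the median gene, lines are 95% counting intervals and dashed lines mark 1.5-fold; Tmem39a and Tmem120a lie past the line in footprints alone.

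Sequences around the annotated starts of the members were searched for 3 motifs. RefSeq promoter windows (GRCm38.p6, 250 bases before to 50 after the annotated start) were found for 39 of the 52 members. An 8-base palindrome bound by the lysosome and autophagy factors TFEB and TFE3, TCACGTGA, lay in 3 of these 39, and in 2.95% of the 5284 table genes with a window. The cAMP-response element TGACGTCA lay in 3 of the 39 and in 4.22% of the table genes. The shorter CCAAT, on either strand, lay in 21 of the 39 (53.8%) and in 43.4% of the table genes. All 3 motifs were chosen after the values were seen. TCACGTGA and TGACGTCA read the same on either strand and do not overlap one another. The windows below are written in the direction of transcription with TCACGTGA or TGACGTCA in capitals. They are shown because they hold that motif wholly upstream of the start.
Tmem55b, chr14:50930861-50930940, minus strand: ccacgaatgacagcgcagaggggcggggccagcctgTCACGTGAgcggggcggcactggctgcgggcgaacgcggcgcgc
Tmem19, chr10:115362502-115362576, minus strand: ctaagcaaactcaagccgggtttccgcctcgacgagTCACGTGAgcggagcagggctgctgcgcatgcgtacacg
Tmem147, chr7:30729542-30729621, minus strand: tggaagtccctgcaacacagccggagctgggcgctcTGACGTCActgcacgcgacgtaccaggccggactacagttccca
Tmem183a, chr1:134362000-134362079, minus strand: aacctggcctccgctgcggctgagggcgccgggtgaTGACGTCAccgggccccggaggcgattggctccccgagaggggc
In Tmem55b the TCACGTGA palindrome lay 55 to 48 bases before the start. In Tmem19 it lay 39 to 32 bases before the start. The RNA ratios of the genes with TCACGTGA or TGACGTCA follow, and a relation to the motif was not tested. Tmem55b stood at -0.27, Tmem126b at -0.26 and Tmem19 at 0.09, all with TCACGTGA, while Tmem147 at 0.40, Tmem39a at 0.29 and Tmem183a at 0.01 had TGACGTCA. In Tmem126b and Tmem39a the motif lay just downstream of the annotated start. A match describes letters in a window and does not show that a factor was bound there.

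Footprints of most members lay above the median gene in siPKM cells. The median log2 ratio was 0.10, 39 of 52 members were above 0, and 29 members (55.8%) had both RNA and footprints above 0, against 37.2% of all genes. At 1.5-fold, 2 members were higher (3.85%), where 2.66% of all genes were, and 0 members were lower, where 1.53% of all genes were. The share of members past the threshold was thus near that of the table as a whole. At the ratio of 5 to 4, 5 members were higher, where 11.1% of all genes were, and 1 was lower, where 8.7% were. At 2-fold, 0 members were higher, where 0.306% of all genes were.

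The 2 members past the threshold were Tmem39a and Tmem120a. Tmem39a, an ER protein that controls autophagy, had 56.0 footprint CPM in siPKM cells and 34.7 CPM in siCtrl cells, a log2 ratio of 0.67 (0.51 to 0.84). Its RNA was 80.4 CPM in siPKM cells and 63.8 CPM in siCtrl cells, so the siPKM library was higher in both kinds. Tmem120a, a protein of the ER and nuclear envelope known from fat cell differentiation, had 21.9 footprint CPM in siPKM cells and 13.8 CPM in siCtrl cells, a log2 ratio of 0.65 (0.38 to 0.92). Its RNA was 42.2 CPM in siPKM cells and 32.9 CPM in siCtrl cells. Tmem120a dropped below 1.5-fold when all reads of the transcript, or the first 15 and last 5 codons, were counted, and a higher floor on reads removed it, which leaves 1 member in each case. At that floor 2.45% of the remaining genes were past the threshold.

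Tmem223, a protein of the mitochondrial inner membrane, followed with 14.3 footprint CPM in siPKM cells and 10.5 CPM in siCtrl cells, a log2 ratio of 0.43 (0.12 to 0.75). Its RNA differed little, with 39.2 CPM in siPKM cells and 38.0 CPM in siCtrl cells. Then came Tmem2 at 0.37, Tmem30a at 0.35, the Golgi protein Tmem87a at 0.30, Tmem214 at 0.25 and Tmem66, a brake on store-operated calcium entry, at 0.25. At the other end Tmem132a had 13.9 footprint CPM in siPKM cells and 19.4 CPM in siCtrl cells, a log2 ratio of -0.49 (-0.77 to -0.22). Its RNA ratio was the lowest too, except that Tmem55b was lower in RNA, at -0.30 against -0.27 for Tmem132a, when all reads of the transcript were counted, and at -0.28 against -0.26 with the first 15 and last 5 codons included. The higher floor on reads left Tmem132a out. Tmem160 stood at -0.27, Tmem57 (macoilin) at -0.26, Tmem11, which shapes the mitochondrial inner membrane, at -0.23, Tmem48 at -0.15, and Tmem55b, Tmem209 and Tmem183a at -0.12 each.

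**Figure D2:**
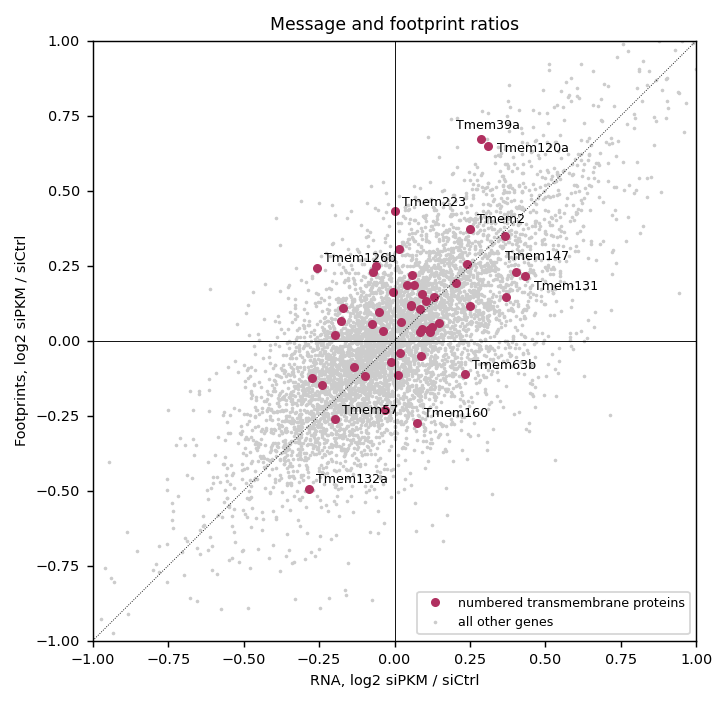
Log2 ratio of siPKM over siCtrl in RNA (x axis) and footprints (y axis) for the 52 members and all other genes, with equality as a dotted line; both axes end at 1 in each direction, and genes farther out are not drawn. The members sit within 0.43 in RNA, and Tmem39a, Tmem120a and Tmem223 stand above the diagonal.

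Among the role lists, the 5 ER insertion members all had footprint ratios above 0 in the coding reads counted here, from 0.11 to 0.23. These were the EMC subunits Tmem85, Tmem93 and Tmem111 at 0.23, 0.16 and 0.12, Tmem147 at 0.23, and Tmem208, which helps target proteins to the ER, at 0.11. None of the 5 was past 1.5-fold. The intervals of Tmem93 (-0.12 to 0.45), Tmem111 (-0.10 to 0.33) and Tmem208 (-0.155 to 0.373) included 0. When all reads of the transcript were counted, Tmem93 stood at -0.03 and Tmem147 at 0.25. EMC subunits with other symbols lay outside the range of 0.11 to 0.23: 2310044H10Rik (Emc10) stood at 0.53, Ttc35 (Emc2) at 0.27 and Cox4nb (Emc8) at -0.34. Of 31 further genes of signal recognition, the translocon, tail-anchor insertion and signal peptidase, 21 had footprint ratios above 0, with a median of 0.06 and 0 genes past 1.5-fold in either direction.

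The traffic and lysosome list had 8 of 10 members above 0 in footprints, with a median of 0.08. Tmem39a was the only one past 1.5-fold. Tmem59 stood at 0.19, Tmem106b at 0.14, Tmem49 (the autophagy protein Vmp1) at 0.10, Tmem167 at 0.07, Tmem199, an assembly factor of the proton pump, at 0.05, Tmem115, a Golgi protein, at 0.04, and Tmem41b, an ER lipid scramblase of autophagy, at -0.04. The 5 lipid and surface members had a median of 0.12, from Tmem2 at 0.37 to Tmem97, the sigma-2 receptor, at -0.09. Between these lay Tmem64 at 0.12 and Tmem5, a glycosyltransferase that modifies dystroglycan, at 0.06.

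The 3 nuclear envelope members were the only role list of more than 1 gene with a median below 0 in both RNA and footprints. Tmem48 was lower in both, Tmem209 stood at -0.10 in RNA and -0.12 in footprints, and Tmem194, an inner nuclear membrane protein, at -0.04 in RNA and 0.03 in footprints. Of the 3 ion and calcium members, Tmem66 and the Golgi manganese transporter Tmem165 were above 0 in footprints, at 0.25 and 0.11. Tmem63b, a stretch-activated channel, stood at -0.11. The cilium protein Tmem67 (meckelin) stood at 0.19. The 7 mitochondrial members had a footprint median of 0.03, with Tmem223 and, in the reads counted here, Tmem126b at the top and Tmem11 at the bottom. Between them lay Tmem14c, which carries heme precursors, at 0.06, the ATP synthase assembly factor Tmem70 at 0.03, Tmem126a at 0.03 and Tmem143 at -0.05. The 18 members in no role list spanned -0.49 to 0.65, with 13 of 18 above 0.

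Families of membrane proteins outside the Tmem name gave nearby values. The 62 solute carriers outside Slc25 had median log2 ratios of 0.12 in RNA and 0.07 in footprints, with 5 higher and 2 lower past 1.5-fold in footprints. The 6 Tmed cargo receptors had a footprint median of 0.05, the 4 Tm9sf proteins 0.17 and the 8 tetraspanins 0.23. The differences between these medians and that of the members were not tested.

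Translation efficiency (TE, footprints over RNA) of the members differed little between treatments. The median change was 0.02, 29 of 52 members were above 0, and the SD was 0.19 against 0.20 over all genes. At 1.5-fold, 0 members were higher, where 0.184% of all genes were, and 0 were lower, where 0.827% were. At the ratio of 5 to 4, 4 members were higher, where 3.8% of all genes were, and 2 were lower, where 6.26% were.

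Tmem126b had the highest TE ratio of the members, 0.50 (0.15 to 0.84). Its RNA was 21.5 CPM in siPKM cells and 24.9 CPM in siCtrl cells, while its footprints were 22.6 CPM in siPKM cells and 18.8 CPM in siCtrl cells. RNA and footprints thus stood on opposite sides of the median gene. The rank depends on which reads are counted. With all reads of the transcript the TE ratio of Tmem126b was 0.34 and that of Tmem39a 0.35, and with the first 15 and last 5 codons included they were 0.34 and 0.35 as well. The footprint ratio of Tmem126b, 0.24, was then 0.12 and 0.11. Tmem126a, its paralog and also a complex I assembly factor, had a TE ratio of -0.06, with 83.8 RNA CPM in siPKM cells and 76.5 CPM in siCtrl cells. The next values were Tmem223 at 0.43 (0.07 to 0.79), Tmem39a at 0.38 (0.17 to 0.60), Tmem120a at 0.33 (0.01 to 0.66), Tmem66 at 0.31, Tmem85 at 0.30, Tmem87a at 0.29 and Tmem208 at 0.28. With all reads of the transcript, Tmem223 stood at 0.25, Tmem66 at 0.20 and Tmem85 at 0.19, and with the first and last codons included Tmem223 stood at 0.28.

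The lowest TE ratios were those of Tmem63b and Tmem160, both -0.35. Tmem63b had 60.0 RNA CPM in siPKM cells and 49.4 CPM in siCtrl cells, and 39.5 footprint CPM in siPKM cells and 42.0 CPM in siCtrl cells. In this gene the siPKM library was the higher one in RNA and the lower one in footprints. Tmem106b at -0.23, Tmem131 at -0.22, Tmem132a at -0.21, Tmem11 at -0.20, Tmem147 at -0.18 and Tmem143 at -0.14 followed. Tmem11 stood at -0.07 when all reads of the transcript were counted. Tmem131, whose RNA ratio was the highest, had a footprint ratio of 0.22, with 386 CPM in siPKM cells and 327 CPM in siCtrl cells.

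Levels of TE spanned a wider range than the ratios between treatments. Relative to the median gene, control TE had a median of -0.27 over the members, and 14 of 52 were above 0. At 2-fold, 2 members were above the median gene, where 10.0% of all genes were, and 7 were below it (13.5%), where 8.59% of all genes were. With a higher floor on reads, 1 of 34 members was 2-fold below, where 7.31% of the 5434 genes were. The order was nearly the same in siPKM and siCtrl cells: Pearson's r was 0.971 over the 52 members and 0.969 over all genes, a description across genes that are not replicates and share their libraries.

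Tmem183a stood lowest, with a log2 TE of -3.23 in siPKM cells and -3.07 in siCtrl cells. It had 1532 coding reads in siPKM RNA and 1720 in siCtrl RNA, but 175 footprints in siPKM cells and 226 in siCtrl cells. A well-covered message thus carried few footprints in its coding sequence in both treatments. Tmem5 had a TE of -2.12 in siPKM cells and -2.14 in siCtrl cells, Tmem93 had -1.62 in siPKM cells and -1.76 in siCtrl cells, and Tmem223 had -1.27 in siPKM cells and -1.68 in siCtrl cells. The other members at least 2-fold below in siCtrl cells were Tmem2 and Tmem208, both at -1.24, and Tmem120a at -1.08.

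At the top, Tmem131 had a TE of 1.05 in siPKM cells and 1.30 in siCtrl cells, and Tmem214 had 1.09 in siPKM cells and 1.10 in siCtrl cells. Below 2-fold in siCtrl cells came Tmem50a at 0.67, Tmem55b at 0.62, Tmem59 and Tmem209 at 0.54 each, Tmem19 at 0.49 and Tmem14c at 0.46. High and low TE both occurred within single role lists. Of the ER insertion members, Tmem85 stood at 0.29 and Tmem93 at -1.76 in siCtrl cells, although both encode subunits of the EMC.

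**Figure D3:**
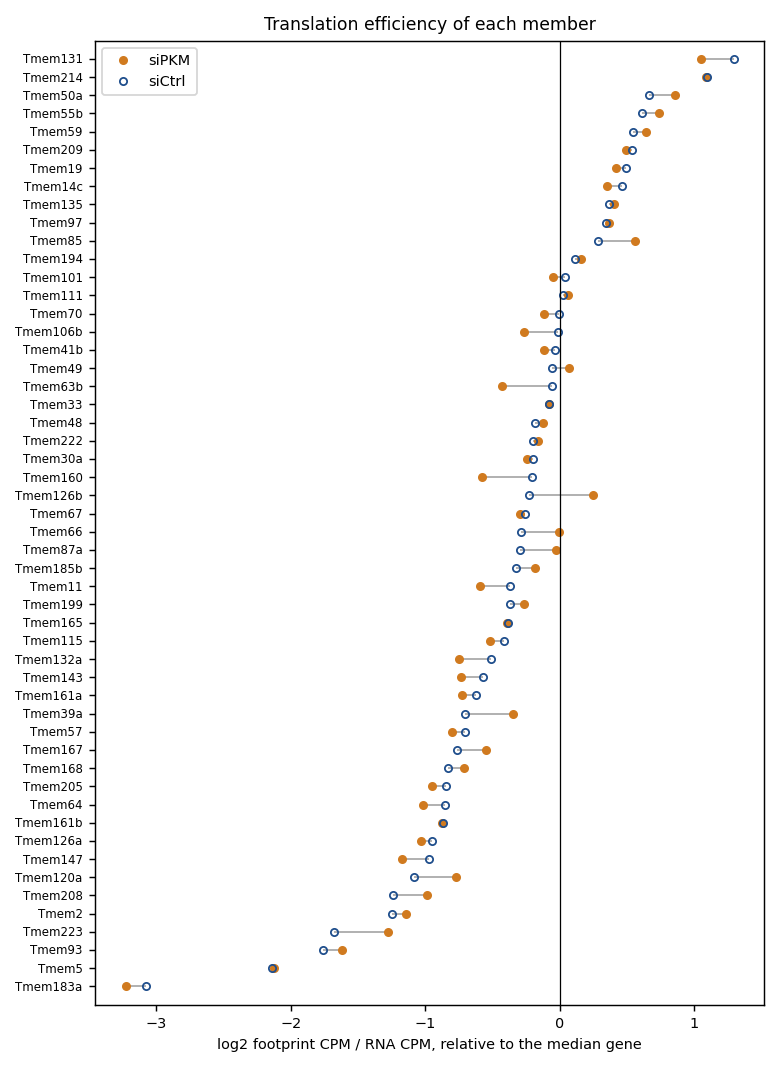
Translation efficiency of each of the 52 members in siPKM (filled) and siCtrl (open) cells, as log2 footprint CPM over RNA CPM relative to the median gene, 1 library of each kind per treatment. Tmem183a lies at -3.23 in siPKM and -3.07 in siCtrl cells, and Tmem131 at 1.05 in siPKM and 1.30 in siCtrl cells.

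Several members with few footprints in the coding sequence had many in the 5' UTR, the leader before the start codon, where short upstream reading frames can occupy ribosomes. The median member had 5.02% of its footprints there in siPKM cells and 6.28% in siCtrl cells, where the median gene had 3.71% in siPKM cells and 3.85% in siCtrl cells. Among the better covered transcripts of each library, the medians were 3.29% in siPKM cells (8 members) and 4.30% in siCtrl cells (11 members), where all genes with as many reads had 3.03% in siPKM cells and 3.29% in siCtrl cells. In siCtrl cells, 18 of 52 members (34.6%) had over 10% of footprints in the 5' UTR, against 24.7% of all genes. At the other extreme, 11 members (21.2%) had none in siCtrl cells, against 12.4% of all genes. Of these, Tmem223 and Tmem67 had 0 RNA reads in the 5' UTR in either treatment, so hardly any leader may be annotated. Tmem87a had 10 such reads in siPKM RNA and 14 in siCtrl RNA.

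Tmem93 had the largest share in siCtrl cells, with 41.4% in siPKM cells and 48.7% in siCtrl cells, while its RNA reads in siCtrl cells were 12.6% in the 5' UTR. Tmem183a had the largest in siPKM cells, with 42.5% in siPKM cells and 42.2% in siCtrl cells, although only 1.29% of its siCtrl RNA reads came from the 5' UTR. The footprints of both were thus denser in the leader than their RNA reads were. Tmem167 had 29.3% in siPKM cells and 32.5% in siCtrl cells, with 3.39% of its siCtrl RNA reads there. Tmem106b had 18.5% in siPKM cells and 23.0% in siCtrl cells. Tmem115, a Golgi protein, was the member whose share was farthest apart in the direction of siPKM, with 33% (27.4 to 38.9, exact binomial) in siPKM cells and 23.0% (18.1 to 28.4) in siCtrl cells, intervals that overlap.

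Across members, the share was lower in siPKM cells for 28 and higher for 15, and the remaining members had none in either. Among all genes it was lower for 49.6% and higher for 39.9%. The 18 members over 10% had a median control TE of -0.73, with 15 of 18 below 0, and the other 34 had a median of -0.19, with 23 of 34 below 0. Both measures come from the same siCtrl footprint library, so they are not independent of each other.

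**Figure D4:**
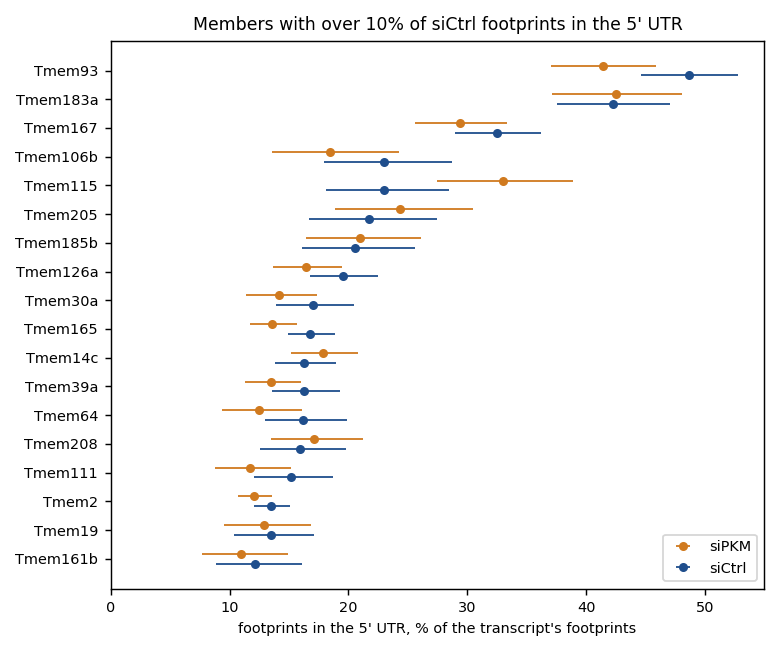
Share of each transcript's footprints in the 5' UTR for the 18 members over 10% in siCtrl cells, in siPKM and siCtrl cells, with exact 95% binomial intervals that cover counting error only. Tmem93 and Tmem183a lie above 40% in both treatments, and Tmem115 has 33% in siPKM cells against 23.0% in siCtrl cells.

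The RNAs of the numbered transmembrane proteins carried more PKM2 CLIP stops for their RNA level than the typical gene. The median member had a log2 ratio of CLIP over control RNA of 0.98 relative to the median gene, and 39 of 52 were above 0. At 2-fold, 26 members (50.0%) were above the median gene, where 25.2% of all genes were, and 2 were below it, where 21.5% of all genes were. At 4-fold, 6 members (11.5%) were above, where 8.22% of all genes were. The replicates were close, with Pearson's r of 0.925 over the 52 members, which share both libraries and the RNA denominator. Values below are means of 2 replicates with the SD. Nothing in the labels says that the replicates came from separate cultures, so this SD may be technical.

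The lists of roles differed in their medians, a difference that was not tested. The 7 mitochondrial members had a median of -0.36 and 0 of 7 were 2-fold above the median gene. Tmem126a had 16 and 22 stops, a ratio of -1.23 ± 0.33, and Tmem126b had 7 and 6 stops, a ratio of -1.05 ± 0.14. These were the lowest of all 52 members. Tmem143 stood at -0.37, Tmem11 at -0.36, Tmem70 at -0.15, Tmem223 at -0.13 and Tmem14c at 0.24. The other 45 members had a median of 1.16, with 26 of 45 at least 2-fold above the median gene.

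Of the 10 traffic and lysosome members, 7 were 2-fold above, with a median of 1.38. Tmem55b had 92 and 82 stops and the highest ratio of the members, 3.37 ± 0.11 (SD, n = 2). Tmem39a had 173 and 176 stops and a ratio of 2.17 ± 0.03, and Tmem106b, Tmem115, Tmem59, Tmem49 and Tmem167 lay between 1.05 and 1.68. Tmem55b and Tmem5 had no RNA reads counted in the 3' UTR, so the whole-transcript RNA in their denominator is the coding and 5' part alone. The traffic members not past 2-fold were Tmem87a at 0.92, Tmem41b at -0.19 and Tmem199 at -0.39.

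All 3 nuclear envelope members were 2-fold above, Tmem194 at 2.65 ± 0.09, Tmem209 at 1.80 ± 0.05 and Tmem48 at 1.40 ± 0.08. So were all 3 ion and calcium members, Tmem63b at 2.33 ± 0.47, Tmem165 at 1.21 ± 0.23 and Tmem66 at 1.02 ± 0.15. The replicates of Tmem63b were the farthest apart of these, with 163 and 102 stops. Tmem67 stood at 1.63. Among the lipid and surface members, Tmem64 at 1.84 and Tmem30a at 1.70 were past 2-fold, and Tmem2 at 0.70, Tmem5 at 0.23 and Tmem97 at -0.28 were not.

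The ER insertion members had a median of 0.21, with 0 of 5 past 2-fold. Tmem111 stood at 0.95, Tmem147 at 0.60, Tmem93 at 0.21, Tmem85 at -0.25 and Tmem208 at -0.40. Of the 18 members in no list, 10 were past 2-fold. They were led by Tmem131 with 570 and 536 stops at 2.81 ± 0.05, Tmem19 at 2.20 ± 0.32 and Tmem33, an ER protein, at 1.97 ± 0.02, and the lowest were Tmem160 at -0.48 and Tmem183a at -0.44.

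**Figure D5:**
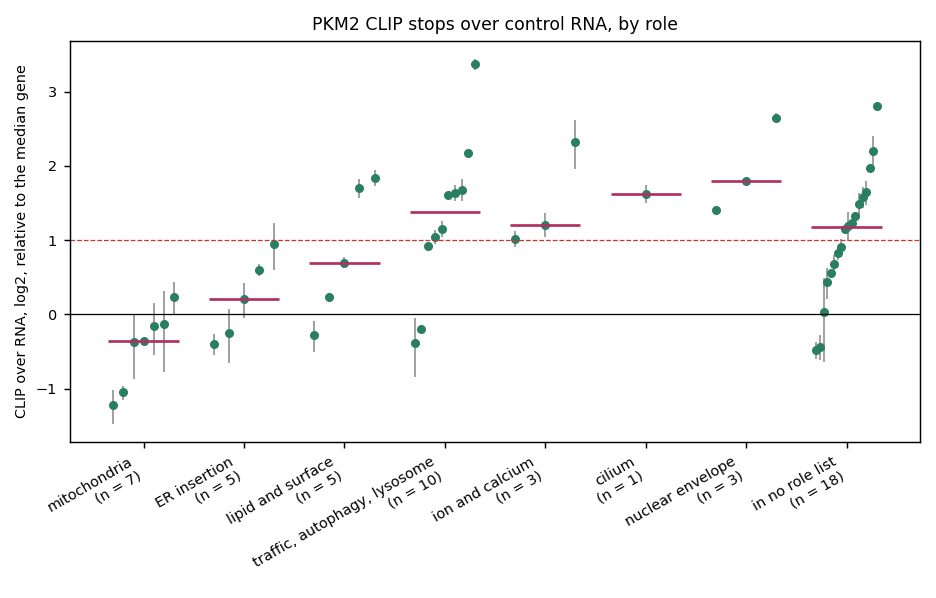
Log2 ratio of PKM2 CLIP stops over siCtrl RNA for each of the 52 members, grouped by role. Points are means of the 2 CLIP replicates, grey lines join the replicates, red bars are group medians, the black line is the median gene and the dashed line is 2-fold above it; the 7 mitochondrial members all lie under the dashed line.

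In absolute stops, which depend on transcript length and level, Tmem131 led with 820.3 ± 29.6 stop CPM. It was followed by Tmem64 with 534 ± 54.3, Tmem2 with 485 ± 34.0, Tmem33 with 445 ± 7.48, Tmem167 with 367 ± 33.1, Tmem165 with 334 ± 52.8, Tmem209 with 325 ± 10.2 and Tmem48 with 304 ± 16.9. Together the members took 0.791% and 0.802% of all stops, against 0.335% of all reads of siCtrl RNA over the same whole transcripts.

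The ratio was related to depth across the table. Over all genes, CLIP over RNA had a Spearman's rho of -0.387 with control RNA reads, and over the members rho was -0.033. Those reads are also the denominator of the ratio, so the 2 measures are not independent of each other. When each gene was set against the median gene of similar control read depth (10 bins of equal size), a choice made after the data were seen, the median member stood at 0.77 and 22 members (42.3%) were 2-fold above, where 23.0% of all genes were. The mitochondrial median was then -0.69 and the traffic median 1.13, with 0 of 7 and 8 of 10 past 2-fold.

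Footprints as the denominator gave higher values, but only footprints of the coding sequence were counted, against RNA of the whole transcript above. With RNA reads of the coding sequence alone as the denominator, the median member already stood at 1.15. Per footprint the median member stood at 1.24, and 33 of 52 (63.5%) were at least 2-fold above the median gene, where 26.5% of all genes were. At the other end 1 member was 2-fold below, where 26.7% of all genes were. Set against the median gene of similar control footprint depth, 24 (46.2%) were 2-fold above, where 23.3% of all genes were, and the median was 0.67. The highest were Tmem64 at 4.15, Tmem167 at 3.75, Tmem194 at 3.62, Tmem106b at 3.06, Tmem30a at 2.87 and Tmem183a at 2.85. Tmem183a and Tmem167 thus stood far higher per footprint than per RNA, where they were at -0.44 and 1.05. Their control TE was -3.07 and -0.76. Tmem106b and Tmem30a, at 1.68 and 1.70 per RNA, also stood higher per footprint, with control TE of -0.01 and -0.20. Because the denominators cover different parts of the transcript, the gap also depends on the share of RNA reads outside the coding sequence. The part of each in the gap was not tested.

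Other membrane protein families also had many stops for their RNA. Of 62 solute carriers outside Slc25, 54 were 2-fold above the median gene, with a median of 1.77, and all 4 Tm9sf proteins were, with a median of 1.41. The 8 tetraspanins had a median of 1.28 with 4 past 2-fold, the 6 Tmed proteins 0.96 with 3, and the 31 insertion and targeting genes 0.86 with 14. The differences between these lists and the members were not tested.

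CLIP over RNA said little about the siPKM ratios of the members. Spearman's rho with the CLIP ratio was 0.303 for the RNA ratio, 0.129 for the footprint ratio and -0.065 for the TE ratio over 52 members, against 0.438, 0.177 and -0.327 over all genes. These are descriptions across genes, and the RNA and TE ratios share the siCtrl RNA library with the CLIP ratio. Of the members with the highest CLIP ratios, Tmem55b stood at -0.12 in footprints, Tmem131 at 0.22, Tmem194 at 0.03, Tmem63b at -0.11, Tmem19 at 0.04 and Tmem39a at 0.67, so both directions occurred among them.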

How the data were processed

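RNA and footprints were measured in siPKM and siCtrl E14 cells and PKM2 CLIP stops in 2 replicates, 6 libraries in 1 table of 6535 rows. Per the file headers, the authors deposited raw counts of reads for each stretch of a transcript (leader, start and end of the reading frame, its body, trailer) and raw counts of stops per mature transcript. The authors also deposited log2 values (RPM, translation efficiency and CLIP enrichment), used here as alternatives only. cutadapt, Bowtie2 and the mm9 build are named per the submitters' processing notes, while versions, counter, strand setting and multi-mapping rule are not given in the sources used here. Values of related genes (Tmem126a and Tmem126b, Tmem161a and Tmem161b) and of genes with overlapping antisense transcripts are uncertain for that reason.

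Duplicate symbols kept the row with more RNA reads, which dropped 3 rows. Coding reads without the first 15 and last 5 codons, plus 0.5, were scaled by the library sum and centred on the median of 6532 genes, which removed log2 shifts of 0.047 in RNA and 0.021 in footprints. A shift shared by all genes cannot be seen. TE was the footprint ratio minus the RNA ratio. CLIP over RNA was stop CPM over siCtrl RNA CPM of the whole transcript. CLIP per footprint was the same stop CPM over siCtrl footprint CPM of the coding sequence alone. Intervals of RNA and footprint ratios and of 5' UTR shares are exact 95% intervals. Those of TE ratios are 95% intervals from a normal approximation. Reads carry no molecular identifiers in the table, so all of these intervals cover counting error only. Named with values were the 8 highest and 8 lowest members for RNA, footprints and TE, the 8 highest and 4 lowest for control TE and CLIP over RNA, the 8 with most stops, the 4 with the largest 5' UTR share, and every member of a role list. Other members, motifs and examples were chosen after their values were seen. The members and lists were chosen with earlier results of these data known. Calculations used Python 3.11.15 (numpy 2.4.6, pandas 2.3.3, scipy 1.17.1), and TMM factors for 1 alternative came from edgeR 4.0.16. The RNA, footprint and TE ratios and the footprint intervals were tested on simulated counts that held counting error alone. The intervals assume that same kind of error, so this could not test variation between libraries. CLIP ratios and the other intervals were not tested in this way. RefSeq (GRCm38.p6) matched all 52 members and 6468 genes, for names and promoters only. Protein sequences were not analysed here.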

Additional observations from a re-analysis of the deposited data

How the results depend on the processing

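No ratio past its threshold changed direction. Among summary values, 98 held and 15 moved. A count held if it stayed within 1.5-fold. A median held if it moved by less than the typical half-width of a single member's interval, or the typical replicate SD for CLIP. For RNA, footprints and TE that margin was wider than the medians themselves, so holding says little there. Some of those that held did so by construction. Scaling by the authors' library totals or by TMM factors cancels on centring, so those settings could not move the RNA, footprint or TE ratios. The TE median, 0.02, was -0.00 when not centred. For single members, which reads were counted mattered most: with all reads of the transcript, 9 RNA, 3 footprint and 7 TE ratios changed sign, all of them under 0.24 in size, and TE ratios of Tmem223, Tmem66, Tmem85 and Tmem11 and the footprint ratio of Tmem126b shrank by over 1.5 times. At a ratio of 5 to 4, 4 members were higher in RNA, 5 were higher and 1 lower in footprints, and 4 were higher and 2 lower in TE; at 2-fold, 0 were higher in footprints. The shares of all genes stand beside these counts in the results. The footprint count of 2 became 1 with a higher floor on reads (34 members kept), with all reads of the transcript and with the first 15 and last 5 codons included. That floor also left 1 member 2-fold below in control TE and raised the CLIP over RNA median to 1.18. At 4-fold, 6 members passed in CLIP over RNA. Centred within bins of control read depth, a choice made after the data were seen, the medians were 0.77 for CLIP over RNA and 0.67 per footprint. Without 1 CLIP replicate the CLIP over RNA median ranged from 0.95 to 0.99 (25 to 26 members) and the per-footprint median from 1.28 to 1.29 (32 to 33 members). In members with more reads, the 5' UTR share had a median of 3.29% in siPKM cells and 4.30% in siCtrl cells. Over all settings the medians ranged from 0.01 to 0.10 in RNA, 0.09 to 0.12 in footprints and -0.00 to 0.02 in TE. No paired analysis was possible because each siRNA treatment had 1 library of each kind. The thinnest values are those of members near 151 coding reads and of Tmem126b, with 7 and 6 stops. The cause of these changes was not tested, other than that a fold threshold, a floor or a left-out replicate alters the count by construction.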
